A study of Mus musculus with 2 samples.

Results

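The cells described here are 165 endothelial cells found among 728 single cells that were sorted from mouse pancreas (22.7%, exact binomial 95% interval 19.7 to 25.9). A cell was taken as endothelial when it held 5 or more UMIs (unique molecular identifiers, each counting 1 captured transcript) summed over Pecam1, Cdh5, Plvap, Kdr, Flt1, Egfl7 and Esam. Cells were left out where the 3 globin genes Hbb-bs, Hba-a1 and Hba-a2 gave 10% or more of the UMIs, where the 4 enzyme genes Ctrb1, Try4, Cela1 and Prss2 gave 10% or more, or where Col1a1, Col1a2 and Dcn together gave 5 or more UMIs. The members were therefore chosen by measured expression, and their difference from the other cells is a description of that choice, with no test.

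The mice were adults of genotype Tff2CreERT2; R26-tdTomato that had received tamoxifen. In these animals the Tff2 gene drives an inducible Cre recombinase, and Cre activity turns on a red fluorescent protein for good in the cell and its descendants. After collagenase digestion and exclusion of dead cells, the sort took EpCAM+ RFP+ cells that lacked CD45 and TER119. Such a gate is meant to keep reporter-positive epithelium and to turn away leukocytes and red cells. By their transcripts, the cells obtained still included endothelial cells, B cells, and T and NK cells, as described below. The labels name 2 biological replicates of this 1 group and no control group, and the 10x Genomics counts cannot be tied to either replicate, so all values come from 1 pooled sample without a replicate check. The sources used here do not give whether animals were pooled or how long after tamoxifen the cells were taken.

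Endothelial cells line blood vessels, and those of different vessel types carry different transcripts. Capillary cells exchange solutes and lipids with the tissue, and the capillaries of the pancreas are known for fenestrae, small pores bridged by the protein that Plvap encodes. Arterial cells are specified through VEGF and Notch signals and SOXF factors such as SOX17, and they couple to each other and to neighbouring mural cells through connexins such as that of Gja4. Car4, a membrane-anchored carbonic anhydrase, and Aplnr, the apelin receptor, are used here as capillary genes, and Sox17 and Gja4 as arterial genes.

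ETS-family factors bind a core of GGAA, and several of them are needed for the expression of endothelial genes. The RefSeq promoter windows (GRCm38.p6, 250 bases before to 50 after the start, 5′ to 3′ on the gene's strand) of 4 genes on which the results below turn are shown to place these genes and to let the motif be seen: the VEGF receptor Kdr, the receptor Tie1, the capillary gene Car4 and the arterial gene Gja4. The capitals mark CCGGAA or CAGGAA, or their reverse complements TTCCGG and TTCCTG. Each motif and its reverse complement can overlap, as TTCCGG and CCGGAA do in the Car4 window.
Kdr, chr5:75978406-75978705, minus strand: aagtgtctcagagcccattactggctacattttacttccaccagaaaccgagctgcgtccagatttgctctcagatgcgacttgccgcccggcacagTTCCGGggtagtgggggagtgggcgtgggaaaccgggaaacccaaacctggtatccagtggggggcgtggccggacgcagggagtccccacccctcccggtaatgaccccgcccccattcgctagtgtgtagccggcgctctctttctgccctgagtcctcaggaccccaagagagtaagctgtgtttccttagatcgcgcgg
Tie1, chr4:118489800-118490099, minus strand: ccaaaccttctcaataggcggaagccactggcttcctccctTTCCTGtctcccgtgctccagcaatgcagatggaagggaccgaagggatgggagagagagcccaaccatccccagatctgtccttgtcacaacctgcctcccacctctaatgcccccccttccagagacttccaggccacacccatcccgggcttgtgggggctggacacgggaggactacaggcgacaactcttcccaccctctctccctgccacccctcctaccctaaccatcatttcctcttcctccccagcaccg
Car4, chr11:84957504-84957803, plus strand: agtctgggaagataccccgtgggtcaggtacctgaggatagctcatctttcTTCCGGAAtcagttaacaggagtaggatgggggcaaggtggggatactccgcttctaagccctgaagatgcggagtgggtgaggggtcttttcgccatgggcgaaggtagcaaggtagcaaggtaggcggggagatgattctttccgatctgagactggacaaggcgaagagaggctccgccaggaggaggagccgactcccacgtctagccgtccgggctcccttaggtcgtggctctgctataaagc
Gja4, chr4:127313990-127314289, minus strand: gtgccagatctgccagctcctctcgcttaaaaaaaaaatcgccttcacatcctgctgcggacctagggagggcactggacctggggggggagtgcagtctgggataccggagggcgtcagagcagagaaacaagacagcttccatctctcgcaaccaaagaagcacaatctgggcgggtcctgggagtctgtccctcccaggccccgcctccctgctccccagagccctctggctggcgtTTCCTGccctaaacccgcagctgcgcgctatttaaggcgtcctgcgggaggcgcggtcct
The Kdr window held TTCCGG, the Tie1 and Gja4 windows each held TTCCTG, and the Car4 window held TTCCGGAA, in which TTCCGG and CCGGAA overlap. Of all 32851 promoter windows, 41.4% held at least 1 of these motifs on either strand, against 51.0% of the 2764 windows of genes detected over the floor used below. Among the genes named below as highest in the endothelial cells, 13 had a window and 8 of them held a motif (61.5%). A match is a description of the letters only.

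The rule separated the cells with few in between. Of the 728 cells, 464 had 0 UMIs of the 7 genes, 74 had 1, 11 had 2, 6 had 3 and 2 had 4, while 171 had 5 or more. Of these 171, 2 were left out for globin, 2 for enzymes and 2 for collagen and decorin. The members had 6 to 122 UMIs of the 7 genes with a median of 28, and the 4 lowest had 6, 6, 8 and 9. Those 4 cells each had 12 to 34 UMIs of Fabp4 and 1 to 3 of Gpihbp1, capillary genes that the rule did not use. Plvap was seen in 163 of the 165 members, Egfl7 in 160, Pecam1 in 154, Flt1 in 147, Kdr in 145, Esam in 138 and Cdh5 in 132.

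**Figure D1:**
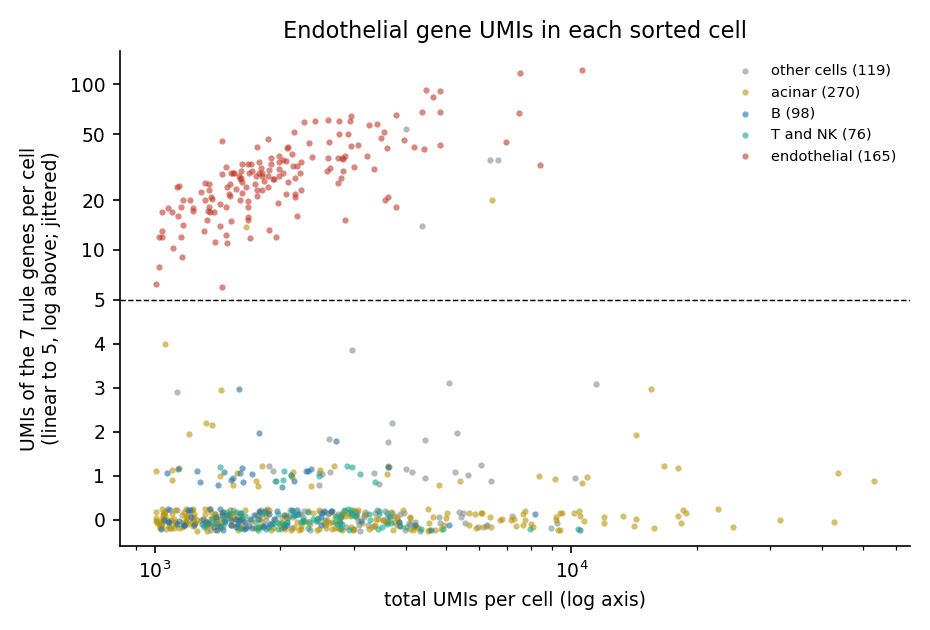
UMIs of the 7 rule genes (vertical axis, linear up to 5 and logarithmic above, jittered) against total UMIs per cell (logarithmic horizontal axis) for all 728 cells, coloured by class, with the minimum of 5 as a dashed line. The 165 endothelial cells lie between 6 and 122 UMIs, and 464 cells lie at 0. Dots of other classes above the line are the cells left out for globin, enzymes or collagen.

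The endothelial cells held 374989 UMIs, with a median of 1866 UMIs (1007 to 10594) and 1039 genes per cell. With every cell reduced at random to 1000 UMIs (0 cells were shallower), the median was 665 genes in endothelial cells and 322 in the other 563. Among those others it was 194.5 in cells with 10% or more enzymes and 473 in the 293 under 10%. In the 18 cells set apart by collagen and decorin it was 658, close to that of the members. Barcodes end in 1 or 2, and 164 of the 165 members end in 1. Most other cells do so too (503 of 563), among them 96 of the 98 B cells and 71 of the 76 T and NK cells described next. Of all barcode sequences, 7 occurred under both endings, and 0 of these cells were members. Acinar, B, and T and NK classes are used for comparison: 270 acinar cells (10% or more of UMIs from the 4 enzymes), 98 B cells and 76 T and NK cells (each with 3 or more UMIs of its own markers). Transcripts of acinar marker genes gave 65.5% of UMIs in acinar cells, 2.05% in endothelial cells, 1.72% in B cells and 1.41% in T and NK cells.

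Transcripts of the gate were scarce in the members. Epcam gave 1 UMI in all 165 cells (2.67 CPM, the usual scaling of a gene's UMIs to all UMIs of the summed cells), and the leukocyte gene Ptprc, which encodes CD45, gave 5 UMIs in 3 cells. The gene row named RFP had 0 UMIs in the members and 2 UMIs (1.71 CPM) in acinar cells. The 3 counts that a 0 allows in the members are a higher level than that of acinar cells, so a difference in this row was not detectable at this depth. Tff2, a secreted trefoil peptide and the gene that drives Cre here, gave 50 UMIs in 40 endothelial cells (133 CPM, 95% Poisson interval 99.0 to 176). In acinar cells Tff2 stood at 6626 CPM, in B cells at 66.7 CPM (35.5 to 114) and in T and NK cells at 53.9 CPM (26.9 to 96.5). In cells thinned to 1000 UMIs, 14.5% of endothelial cells, 6.12% of B cells and 5.26% of T and NK cells had a Tff2 UMI, and the share was 24.2% of endothelial cells at full depth. The Tff2 intervals of endothelial and B cells overlap and those of endothelial and T and NK cells do not, and the part of free acinar RNA in the Tff2 counts was not tested.

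Against the 563 other cells, genes of endothelial identity stood far above the typical gene. Differences are given as log2 ratios of CPM between summed cells, for genes with at least 50 UMIs in the 2 sets together. A gene that reached this floor through the endothelial cells alone had to differ, so counts over lists describe and do not test. A ratio of 2 in either direction counts as a call, and the intervals are exact 95% intervals that cover counting error only. Of 18 pan-endothelial genes 17 passed that floor, none of them used by the rule, and these 17 were called higher, with a median log2 ratio of 6.29. Of all 3598 genes compared, 62.6% were called higher and 9.56% lower, and the median was 1.34. Acinar marker genes took 39.6% of the other cells' UMIs and 2.05% of the members', which enters every ratio through the totals. Of the called genes 86.7% were higher, and this became 73.4% when acinar markers were left out of the totals and 73.7% against only the 293 other cells under 10% enzymes. Against those 293 cells, 31.4% of genes were called higher and 11.2% lower, the median of all genes was 0.53, and the same 17 pan-endothelial genes had a median of 5.43.

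Several of the pan-endothelial genes called higher encode receptors and surface proteins. Emcn, an endothelial sialomucin, had 537 UMIs in 141 members (1432 CPM) against 5.13 CPM in B cells, 0 UMIs in T and NK cells and 9.38 CPM in acinar cells, with a log2 ratio over all other cells of 6.59. Tie1, an angiopoietin pathway receptor, had 104 UMIs in 75 members (277 CPM) and 0 UMIs in B cells and in T and NK cells, with a log2 ratio of 6.65 (5.51 to 8.43). Tek, the angiopoietin receptor itself, had a log2 ratio of 6.49 (5.43 to 8.07). Ly6c1, a GPI-anchored surface protein, was the most abundant of the list, at 4493 CPM and seen in 163 of 165 cells. Ly6e, also GPI-anchored, had the smallest ratio (2.23), and its level was 2944 CPM in endothelial cells, 1923 CPM in B cells and 780 CPM in T and NK cells. One member of the list was thinly seen: Cldn5, the tight junction claudin of endothelium, gave 39 UMIs in 9 cells, of which 13 and 11 came from 2 cells, and 0 UMIs in every other cell of the table.

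The capillary program was present in most members. All 11 capillary genes over the floor that the rule did not use were called higher, with a median log2 ratio of 6.76. In this comparison 62.6% of all genes were called higher, with a median of 1.34. Gpihbp1, which anchors lipoprotein lipase on the capillary wall, had 626 UMIs in 141 cells (85.5% of members, 0 to 27 per cell with a median of 3) against 16 UMIs in 8 of the other cells. Its level was 1669 CPM, with 0 UMIs in B cells and in T and NK cells and 4.26 CPM in acinar cells, and its log2 ratio was 7.65 (6.98 to 8.51). Car4 had 307 UMIs in 97 cells (0 to 10 per cell, median 1; 819 CPM) against 11 UMIs in 3 other cells. Aplnr had 115 UMIs in 58 cells (0 to 8 per cell, median 0; 307 CPM) against 3 UMIs in 2 other cells. Gpihbp1 was thus seen in most members, and Car4 and Aplnr in a part of them. Of the capillary genes under the floor, Prx gave 1 UMI and Timp4 gave 6.

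Most genes of fatty acid handling over the floor were higher in the members, and Fabp4 was by far the most abundant of them. Several of these genes, among them Gpihbp1, Cd36, Fabp4 and Fabp5, are also on the capillary list. Of the lipid uptake genes over the floor, 7 of 8 were called higher, with a median of 5.25. Among all genes compared, 62.6% were called higher, with a median of 1.34. Fabp4, a fatty acid binding protein, gave 3876 UMIs (10336 CPM) in 162 cells, with 0 to 260 UMIs per cell and a median of 16. Its log2 ratio was 6.76 (6.55 to 6.98). Cd36, a fatty acid translocase, stood at 621 CPM, Fabp5 at 909 CPM and the lipoprotein receptor Scarb1 at 565 CPM, each with a log2 ratio between 4.66 and 5.25. Tcf15, a transcription factor that with MEOX2 controls fatty acid uptake in heart capillaries, had 174 UMIs in 90 cells and a log2 ratio of 7.39 (6.27 to 9.16). Its known partner Meox2 gave 3 UMIs, while Meox1, a close relative, gave 124 UMIs in 78 cells (log2 ratio 7.55, 6.19 to 10.07). Lpl, the lipase that GPIHBP1 carries, was the member called lower, with 6 UMIs in the 165 cells and a log2 ratio of -2.90. Angptl4, an inhibitor of that lipase, gave 2 UMIs.

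The 20 genes with the highest ratios, by a rule on counts and shares of cells, included 5 of the genes above (Gpihbp1, Meox1, Aplnr, Tcf15 and Car4) and the arterial factor Sox17. Sox17 had 61 UMIs in 38 members and 1 UMI elsewhere, so its log2 ratio of 7.76 has a wide interval (5.80 to 13.66). The water channel Aqp1 had 579 UMIs in 122 cells against 25 UMIs in 14 cells (log2 ratio 6.91, 6.36 to 7.57). Cd300lg, a mucin-like receptor of capillary endothelium, had 242 UMIs against 10 (6.93), Adgrf5, an adhesion receptor, 224 against 10 (6.82), and Myct1, a membrane protein, 182 against 7. Thrsp, known from the control of fat synthesis, had 162 UMIs in 91 members against 6 elsewhere (7.04). The remaining genes were Ripply3, Ushbp1, Clic5, Fam167b, Unc45b, Col13a1, Pcdh17, Grrp1 and Lmcd1, with 60 to 141 UMIs in the members and 1 to 5 elsewhere. Of these, Ushbp1 is on the pan-endothelial list, and its log2 ratio of 7.38 (6.01 to 9.90) lay above those of Emcn, Tie1 and Tek.

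The genes with the lowest ratios belong to the other cell types. Spp1, a duct gene that encodes osteopontin, had 4 UMIs in members against 2219 elsewhere (log2 ratio -6.55), and Gp2, the membrane protein of zymogen granules, had 8 against 2586 (-5.85). Krt8, Amy2a5, Sox9 and Cd3g had 0 UMIs in the members. With 3 counts allowed, Krt8 was at least 19.1-fold lower, the amylase Amy2a5 at least 20.7-fold, the duct factor Sox9 at least 9.16-fold and the T cell receptor chain Cd3g at least 10.7-fold. Cabp2, Cbs, Hmha1 and Hcst were also at 0.

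**Figure D2:**
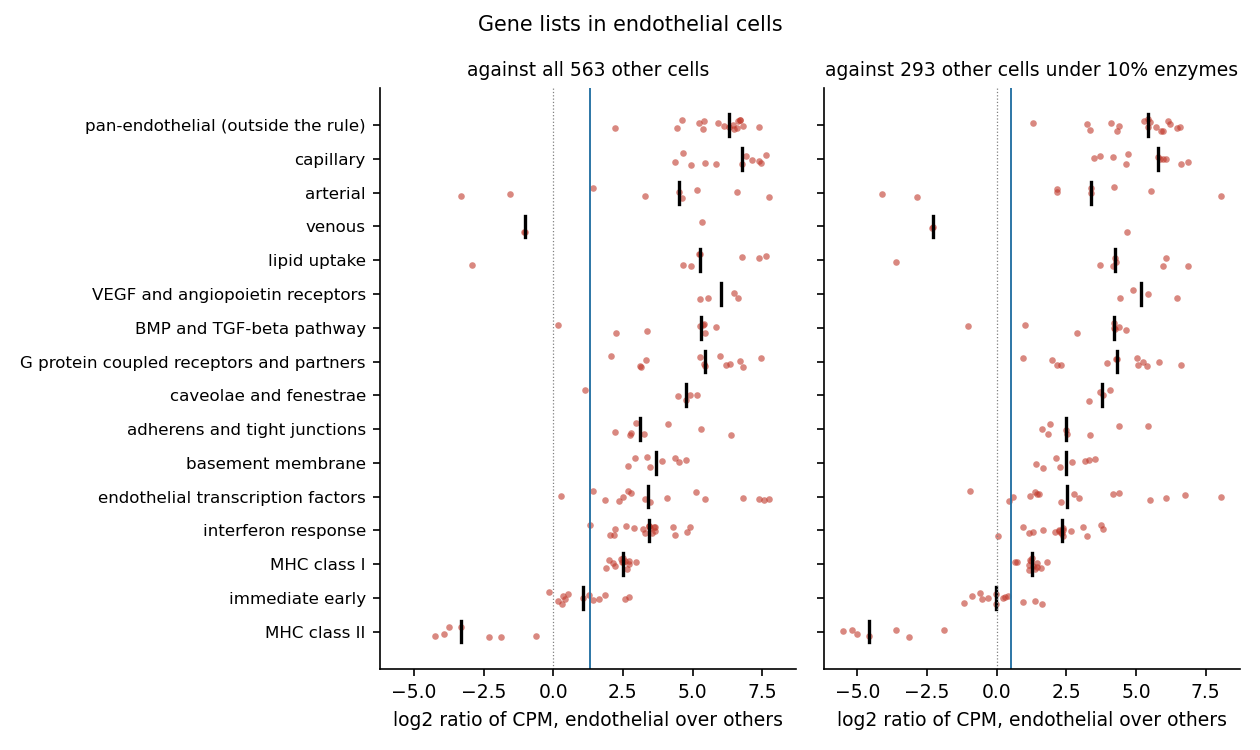
Log2 ratios of CPM, endothelial cells over other cells, for the genes of 16 lists with 50 or more UMIs over both sets and outside the rule (dots, jittered vertically), with each list's median (black bar) and the median of all genes compared (blue line). The left panel is against all 563 other cells, where all genes have a median of 1.34, and the right panel against the 293 under 10% enzymes, where it is 0.53. Of the lists drawn, the capillary and pan-endothelial medians lie furthest to the right and the MHC class II median furthest to the left, in both panels.

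Receptor genes for vessel growth and blood flow were higher in the members, though some were seen in few cells. Beyond Kdr and Flt1, which the rule used, all 4 VEGF and angiopoietin receptor genes over the floor were called higher (median 6.01). Of all genes, 62.6% were called higher in this comparison. Nrp1, a VEGF co-receptor, stood at 1464 CPM in 147 cells, and Nrp2, its paralog, at 128 CPM in 34 cells. All 13 G protein coupled receptor genes and partners were called higher, with a median of 5.46. Calcrl, which forms the adrenomedullin receptor, had 49 UMIs in 41 cells, and its partners Ramp2 and Ramp3 had 248 and 158 UMIs. The BMP and TGF-beta list had 7 of 8 genes called higher. Its co-receptor Eng stood at 1480 CPM, its receptor Acvrl1 at 435 CPM, and its targets Id1 and Id3 at 859 and 1907 CPM, while Id2 (93.3 CPM in endothelial and 240 CPM in T and NK cells) was not called.

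Endothelial transcription factors had a lower median than the receptors. Of 16 over the floor, 15 were called higher (median 3.39), against 62.6% of all genes. Compared with B cells, 10 of 14 were called higher, where 43.6% of all genes were called higher and 12.3% lower. Epas1, which encodes HIF-2alpha, stood at 709 CPM in 117 cells, with 0 UMIs in B cells and in T and NK cells. Sox18, a SOXF factor like Sox17, had 74 UMIs in 56 cells and 0 UMIs in those classes and in acinar cells. The ETS factors Fli1 and Ets1 stood at 291 and 333 CPM, against 113 and 185 CPM in B cells. Mef2c (456 CPM) and the flow-responsive Klf2 (283 CPM) were not called against B cells, where they stood at 651 and 354 CPM.

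Structural genes followed the same order. All 8 junction genes outside the rule and over the floor were called higher (median 3.11), where 62.6% of all genes were called higher. Jam2 and Jam3, junctional adhesion molecules, had log2 ratios of 6.37 and 5.30, and the catenin Ctnnb1, which most cells use, had 2.23. All 5 genes for caveolae and their partners were called higher (median 4.76), with the caveolins Cav1 at 749 CPM and Cav2 at 264 CPM. All 8 basement membrane genes were called higher (median 3.69). Sparc, a matrix-binding glycoprotein, stood at 2693 CPM, and the collagen IV chains Col4a1 and Col4a2 at 1261 and 957 CPM.

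Several defining genes of larger veins, lymphatics and activated endothelium gave few or 0 UMIs, while other genes of the venous and leukocyte adhesion lists were well seen. Vwf, the von Willebrand factor of larger vessels, gave 1 UMI in all 165 cells, Selp, the P-selectin of activated and venous cells, gave 2, and Vcam1, an adhesion molecule of inflamed vessels, gave 2. Ackr1, a chemokine receptor of venules, gave 3 UMIs, all in 1 cell. Prox1 and Pdpn, which define lymphatic endothelium, gave 0 UMIs, which allows up to 3 counts each, and Lyve1 gave 1. Nr2f2, the factor that sets venous identity, had 22 UMIs in 18 cells, and the venous receptor Ephb4 had 65 UMIs in 49 cells (log2 ratio 5.35, 4.36 to 6.69). Ephb4 was thus the only venous list gene called higher, beside Apoe and Bgn, which were called lower at -1.01 and -1.06. The 13 measured venous genes together gave 404 UMIs (1077 CPM), of which the lipid carrier Apoe gave 212. On the leukocyte adhesion list, all 6 genes outside the rule and over the floor were called higher (median 5.61), against 62.6% of all genes. The 6 were Cd34, Podxl, Icam2, F11r, Jam2 and Glycam1, and the 155 UMIs of Glycam1 came from 1 cell. Of the arterial list, Gja5 gave 1 UMI and Bmx 2, whereas Tm4sf1, a tetraspanin-like protein, and the chemokine Cxcl12 stood at 1360 and 891 CPM.

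Antigen presentation genes divided by class. All 13 MHC class I genes over the floor were called higher than in all other cells (median 2.49), but only 3 of 13 against B cells (B2m, Tap2 and Tapbp) and 3 of 13 against T and NK cells (H2-Q6, Tap2 and Tapbp). Of all genes, 43.6% were called higher against B cells, and 42.4% were called higher and 13% lower against T and NK cells. B2m, the shared light chain, stood at 5344 CPM in endothelial cells, 2251 CPM in B cells, 2873 CPM in T and NK cells and 31.5 CPM in acinar cells. H2-D1, a classical heavy chain, stood at 2453, 1251, 1299 and 35.8 CPM in the same order. Against all other cells, 62.6% of all genes were called higher and 9.56% lower. MHC class II genes, which load peptides for CD4 T cells, had 0 called higher and 6 of 7 called lower there. Their chaperone Cd74 gave 57 UMIs in 20 endothelial cells (152 CPM) against 20991 CPM in B cells, 637 CPM in T and NK cells and 45.2 CPM in acinar cells. Ciita, the master activator of class II genes, gave 0 UMIs.

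Interferon-response genes were abundant in the members. The 22 measured genes together stood at 14587 CPM in endothelial cells, 2759 CPM in B cells, 1716 CPM in T and NK cells and 442 CPM in acinar cells, and at 9820 CPM in the 18 cells set apart by collagen and decorin. The 19 over the floor were called higher than in all other cells (median 3.45), and 16 of 18 against the 293 under 10% enzymes. Against B cells 11 of 13 were called higher, and against T and NK cells 12 of 14. The shares of all genes called higher were 62.6%, 31.4%, 43.6% and 42.4% in the same order. Ifitm3 and Ifitm2, membrane proteins that block virus entry, stood at 3387 and 1752 CPM, against 15.4 and 10.3 CPM in B cells. Together with Ly6e, which is also counted on the pan-endothelial list, they gave most of the summed level in endothelial cells. Rsad2, an antiviral enzyme, had 87 UMIs in 57 endothelial cells (232 CPM) and 0 UMIs in B cells and in T and NK cells. Isg15, a ubiquitin-like modifier, stood at 288 CPM against 15.4 CPM in B cells and 93.2 CPM in T and NK cells. Ifit1, Ifit2, Ifit3, Isg15 and Rsad2 together gave 307 UMIs in the endothelial cells (819 CPM), against 46.2 CPM in B cells, 162 CPM in T and NK cells and 6.82 CPM in acinar cells. The UMIs were spread unevenly: 56 endothelial cells had 0 of these 5 genes, 39 had 3 or more, and the highest had 20. This group of 5 genes was chosen after their values were seen.

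**Figure D3:**
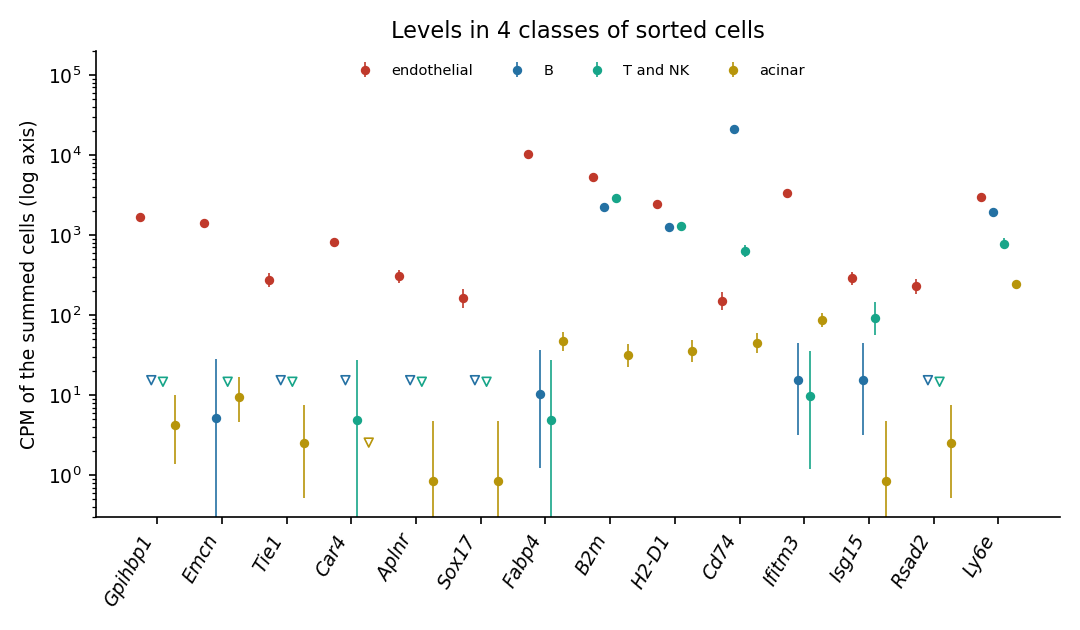
CPM of summed cells (logarithmic axis) for 14 genes in endothelial, B, T and NK, and acinar cells, with exact 95% Poisson intervals. Open triangles stand at the level that 3 counts would give where a class had 0 UMIs. Gpihbp1, at 1669 CPM in endothelial cells, had 0 UMIs in both lymphocyte classes, while B2m differed by less than 3-fold between endothelial and lymphocyte classes and Cd74 was highest in B cells.

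Immediate early genes, which respond fast to stress, stood near the level of the cells under 10% enzymes, at 3843 against 3833 CPM summed over 15 genes. Of 13 over the floor, 7 were called higher against all other cells, where 62.6% of all genes were called higher. Their median of 1.06 lay below the median of all genes, and against cells under 10% enzymes the median was -0.02. Fos stood at 259 CPM in endothelial cells, 292 CPM in B cells and 544 CPM in T and NK cells. Junb stood at 501, 980 and 1432 CPM. Jun stood at 765 CPM against 103 and 83.3 CPM.

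Against acinar cells, 80.6% of genes were called higher and 7.09% lower, with a median of 2.66. The pan-endothelial genes had a median of 7.38 there and the capillary genes 8.19, or 7.05 and 7.91 with genes at 0 UMIs in acinar cells set to 3 counts. All 16 acinar marker genes over the floor were called lower than in acinar cells (median -4.97). Against B cells none of 14 acinar markers was called, with a median of 0.40.

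Within the endothelial cells, the arterial genes marked a smaller group. Cells with 2 or more UMIs of Sox17 and Gja4 numbered 28 of 165 (95% interval of the share 11.6 to 23.6%), and 70 cells had 2 or more UMIs of Car4 and Aplnr and none of Sox17 and Gja4 (42.4%, 34.8 to 50.3). The other 67 met neither rule. Median depth was 2043.5 UMIs in arterial-marker cells and 1878 in capillary-marker cells. The labels and the rule give no vessel type beyond these genes, so the names stand for the markers. Sox17 was seen in 38 and Gja4, a gap junction connexin, in 39 members, and 16 cells had both.

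Car4 and Aplnr were lower in cells with more Sox17 and Gja4. Their summed level was 1482 CPM (1327 to 1649) in the 104 cells with 0 UMIs of Sox17 and Gja4, 728 CPM (552 to 944) in the 33 cells with 1, 454 CPM (277 to 702) in the 18 cells with 2 or 3 and 376 CPM (180 to 691) in the 10 cells with 4 or more. The intervals of the last 3 groups overlap. Of cells with a Sox17 or Gja4 UMI, 32 of 61 (52.5%) also had Car4 or Aplnr, against 88 of 104 (84.6%) of the rest, and the shares were 25.6% and 67.5% in cells thinned to 1000 UMIs. Over the same 4 grades, the 17 other arterial genes (without Cxcl12, Ltbp4 and Tm4sf1, which were broadly seen) stood at 509, 1061, 2521 and 2895 CPM. The 13 other capillary genes followed no such order, at 24684, 21710, 17488 and 27746 CPM. In the last grade, 1 cell held 260 UMIs of Fabp4 and 23 of Gpihbp1, of the grade's 738 UMIs of these 13 genes. The order without that cell was not tested. The trio of broad genes was set aside after their values were seen.

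**Figure D4:**
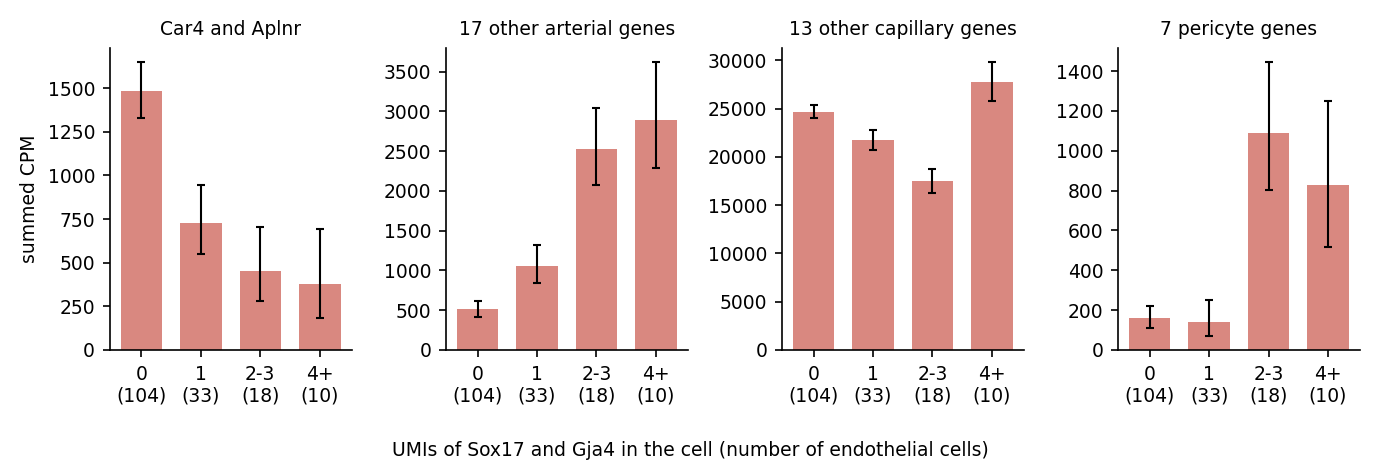
Summed CPM (bars, from 0) with exact 95% Poisson intervals for 4 gene groups in endothelial cells graded by their UMIs of Sox17 and Gja4, with the number of cells in brackets. Car4 and Aplnr go from 1482 to 376 CPM and the 17 other arterial genes from 509 to 2895 CPM. The 13 other capillary genes follow no order, with 260 Fabp4 UMIs of the last grade from 1 cell. The 7 pericyte genes are high in the last 2 grades.

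Arterial-marker cells carried further arterial genes. With a floor of 20 UMIs over both groups and the 4 selecting genes left out, 5.41% of 2109 genes were called higher in arterial-marker than capillary-marker cells and 6.12% lower, with a median of 0.03. Of the 8 other arterial genes over the floor, 6 were called higher, with a median of 2.03. Fbln5, an elastic fibre protein, had 32 UMIs in 14 of 28 arterial-marker cells (0 to 7 per cell) and 0 UMIs in 70 capillary-marker cells, and was at least 25.2-fold higher. Stmn2, a microtubule regulator seen in arterial endothelium, had 27 UMIs in 14 cells against 6 in 2 cells (log2 ratio 3.32, 2.11 to 4.98). Efnb2, the arterial ephrin ligand, had 23 UMIs against 7 (2.89, 1.69 to 4.42), and the transcription factor Mecom 20 against 8 (2.51, 1.32 to 3.96). The Notch ligand Dll4 had 15 against 12 (1.55, 0.37 to 2.79). Each was thus higher in the arterial-marker cells, which held 70628 UMIs against 167136 in the capillary-marker cells. Stmn2 or Fbln5 was seen in 24 of 61 cells with Sox17 or Gja4 (39.3%) and in 4 of 104 without (3.85%). After thinning the shares were 41.0% and 3.97%. Both genes were among those with the highest ratios above in these same cells, so these shares are no separate support.

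The capillary list did not mirror this. Of 11 genes over the floor, 2 were called higher in arterial-marker cells and 0 lower, with a median of -0.09. Among all genes, 5.41% were called higher and 6.12% lower. Gpihbp1 stood at 1543 CPM in arterial-marker and 1645 CPM in capillary-marker cells (log2 ratio -0.09, -0.43 to 0.23). In the arterial-marker group, 2 cells held 27 and 23 UMIs of Gpihbp1, against a median of 3 per member. Fabp4 stood at 9316 and 10548 CPM, and 1 arterial-marker cell of 3632 UMIs held 260 UMIs of it. That cell was also the one with 23 UMIs of Gpihbp1. The levels of both genes without these cells were not tested. The 2 genes called higher were Cd36 (1246 against 503 CPM) and Kitl, the ligand of the receptor KIT (453 against 168 CPM). Plvap, a rule gene for the cells as a whole, stood at 3002 CPM in arterial-marker and 5080 CPM in capillary-marker cells, a log2 ratio of -0.76 (-0.98 to -0.54) that was under the 2-fold call. Klf2 was higher in arterial-marker cells (524 against 185 CPM, 1.49, 0.77 to 2.24), and Tek was lower (156 against 365 CPM, -1.18, -2.30 to -0.29).

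Other named genes had no place on the arterial list. Glul, glutamine synthetase, had 50 UMIs in 19 of 28 arterial-marker cells (0 to 10 per cell, 708 CPM) against 8 UMIs in 7 of 70 capillary-marker cells (47.9 CPM), a log2 ratio of 3.81 (2.80 to 5.17). In the other 67 cells Glul stood at 350 CPM, and against all 137 other members the ratio was 1.95. A pair of genes of polyamine synthesis went in opposite directions: Azin1, the antizyme inhibitor, had 21 UMIs against 5 (3.21, 1.87 to 5.08), and Odc1, ornithine decarboxylase, had 1 UMI against 33 (-3.24, -9.15 to -1.22). With 1 or more UMIs of Sox17 and Gja4 as the rule, Odc1 was at -1.04. Tspan7 (a tetraspanin), Ptprr (a phosphatase), Rgs3 (a regulator of G protein signalling) and Efnb1 (an ephrin) were also higher, with 17 to 23 UMIs against 4 to 12. On the lower side, Egr1, an immediate early factor, had 2 UMIs against 40 (-2.78, -6.17 to -1.13), Ier3 2 against 24 and Cd24a 5 against 53. Slfn2 had 0 UMIs against 21, at least 2.96-fold lower. Bok, Fam174b, Hmgn3, Ptgs1 and Ttc14 had 1 or 2 UMIs against 21 to 27.

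**Figure D5:**
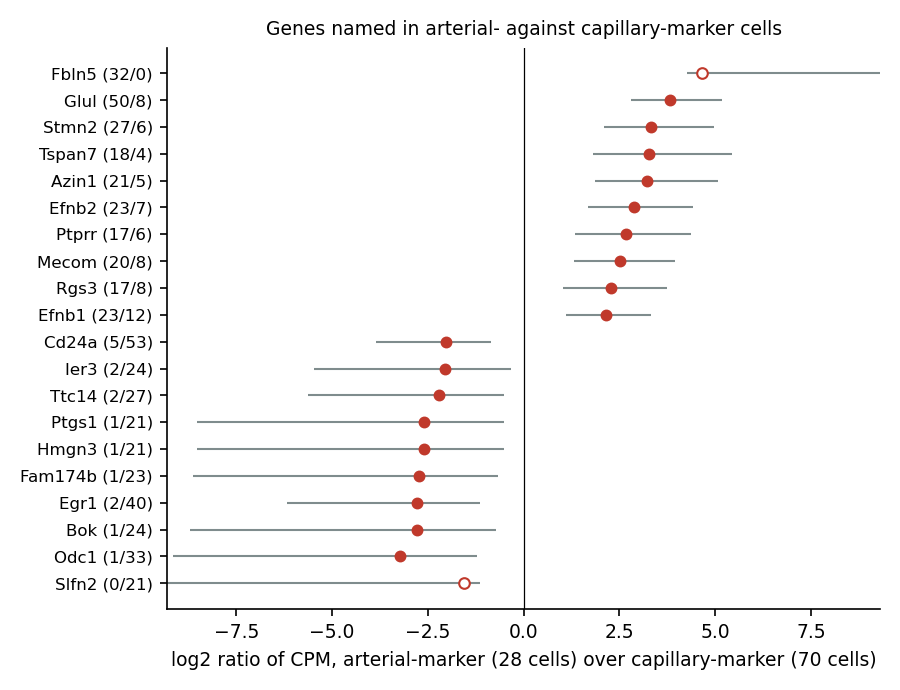
Log2 ratios of CPM, arterial-marker over capillary-marker cells, for the 20 named genes, with exact 95% intervals and UMIs in the 2 groups in brackets. Open circles are bounds computed with 3 counts where a group had 0 UMIs, and lines that reach the edge go on beyond it. Glul, with 50 against 8 UMIs, has an interval from 2.80 to 5.17.

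Pericyte transcripts were more abundant in the arterial-marker cells at full depth, through few cells. Pericytes wrap capillaries and share contacts with endothelium. All 4 pericyte and smooth muscle genes over the floor were called higher in arterial-marker cells (median 2.51), where 5.41% of all genes were. Among the 4 was the receptor gene Pdgfrb (19 against 5 UMIs). Cells with 3 or more UMIs of 7 pericyte genes numbered 9 (5.45% of members, 2.52 to 10.1) and held 111 of the members' 117 UMIs of these genes. By share of cells, 11.5% of cells with a Sox17 or Gja4 UMI and 6.73% of those without had a UMI of the 7 genes, but after thinning the order was the opposite, at 2.56% (1 of 39) and 7.94% (10 of 126). Of the 9, 4 were arterial-marker and 3 capillary-marker cells, and their median depth was 3788 UMIs. They also carried endothelial genes, with Gpihbp1 at 1121 CPM and Fabp4 at 5786 CPM. Acta2, Myh11 and Tagln, which define smooth muscle, gave 1 UMI each in all members. Without the 9 cells, 5.54% of genes were called higher and 6.9% lower, 7 of 8 arterial genes were called higher (median 2.27), and Fbln5 had 31 against 0 UMIs. Rgs5, a regulator of G protein signalling and the only pericyte gene still over the floor, then went from 48 against 45 UMIs (1.33) to 4 against 27 (-1.05). The part of pericyte RNA in the other arterial differences was not tested beyond leaving these cells out.

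Aplnr was seen in similar shares of the cells with and without Car4. Of 97 cells with Car4, 36.1% had Aplnr, and of 68 without Car4, 33.8% had it, with 22.7% and 22.2% after thinning. A comparison of 40 cells with 2 or more UMIs of Car4 and none of Aplnr against 23 cells with Aplnr and none of Car4 was chosen after values were seen. There, 6.57% of 1142 genes were called higher in the Car4 cells and 2.8% lower. Igfbp3, a binding protein of insulin-like growth factors, had 115 UMIs (1451 CPM) in the Car4 cells and 14 (248 CPM) in the Aplnr cells, a log2 ratio of 2.50 (1.74 to 3.46). Atp2b1, a calcium pump, had 22 against 1 (3.42, 1.34 to 9.34). Odc1 was again on the lower side, with 4 UMIs against 18 (-2.53, -4.68 to -1.06), as were Vim, an intermediate filament (-1.65), and Icam2, an adhesion molecule (-1.52). Of the 4 cells rich in cell cycle genes described below, 2 stood in the Aplnr group, with 9134 of its 56439 UMIs, and 1 in the Car4 group. Without them Igfbp3 stood at 2.29, Atp2b1 at 3.16, Odc1 at -2.46 (15 UMIs in the Aplnr cells), Icam2 at -1.64 and Vim at -1.28, with 17 in place of 43 Vim UMIs in the Aplnr cells. Of 11 capillary genes, 3 were called higher in the Car4 cells and 0 lower.

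Few members stood alone. Of 3137 genes with 20 or more UMIs in the members, 5 had more than 50% of them in 1 cell, and 4 of these had all of them in the same cell. That cell, with 8423 UMIs and 33 of the 7 rule genes, held all 155 UMIs of Glycam1, 64 of Ccl21a, 24 of Lrg1, 21 of Ubd and 3 of Ackr1. Glycam1, a ligand of L-selectin, and Ccl21a, a chemokine for T cells, are known from the high endothelial venules of lymph nodes. The cell had 0 UMIs of Gpihbp1, 7 of Fabp4, 4 of T cell genes and 12.5% mitochondrial UMIs, against 4.06% over all members. Another cell, of 3562 UMIs, held 25 UMIs of macrophage and dendritic genes and also the only UMIs of Selp (2) and Vwf (1). Whether each was 1 cell or 2 captured together was not tested.

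Proliferation was also limited to few cells. Of the 165 members, 4 had 5 or more UMIs of 8 cell cycle genes (2.42%, 0.664 to 6.09), with 11, 15, 34 and 51 UMIs, and they held 111 of the members' 118. The histone gene Hist1h2ap followed, with 115 of 116 UMIs in these 4 cells. Their median depth was 5275 UMIs, 3 were capillary-marker and 0 arterial-marker cells. Of the other classes, 1 B cell, 1 T or NK cell and 0 of 270 acinar cells passed the same minimum. Esm1, a gene of sprouting tip cells, gave 92 UMIs in 29 cells, of which 24 came from 1 cell, and Apln, the apelin ligand of tip cells, gave 10 UMIs in 6 cells.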

How the data were processed

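The authors deposited raw counts of UMIs for 728 cells and 14793 gene rows, as the whole numbers and per the labels' protocols. Cell Ranger and the build mm10 are named per the submitters' processing notes. Its version and the filter on cells are not given there. Rows with a repeated symbol were summed (14789 symbols). No label assigns a cell to 1 of the 2 replicates, so the table was treated as 1 sample and no p-value is given. For each set of cells the counts of a gene were added up and divided by all UMIs of the set (CPM), which makes every ratio depend on the other genes in the total. Log2 ratios had a prior of 0.5 counts on each sum. Genes were called at a ratio of 2 over a floor of 50 UMIs (20 within the endothelial cells). Exact 95% intervals were used throughout, by Clopper-Pearson for a share and from the Poisson distribution for counts and ratios. They cover counting error only, and neither animals nor free RNA. A count of 0 allows 3 counts. Thinning drew 1000 UMIs per cell. No doublet caller was run.

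Named genes were the 20 highest and 10 lowest over the floor with a UMI in 10% of the cells of the higher set, and within the endothelial cells the 10 highest and 10 lowest with 20%. Genes of the rule, mitochondrial genes, ribosomal protein genes and unnamed loci were left out. Members of 32 gene lists were also named. The members, lists and comparisons were chosen with earlier results of these data known. Totals, floors, the minimum of rule genes, thinning and groups of cells were varied. Promoter sequences are from RefSeq. Python 3.11.15, numpy 2.4.6, scipy 1.17.1, pandas 2.3.3 and matplotlib 3.10.9 were used, and the script was tested on simulated data.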

Additional observations from a re-analysis of the deposited data

How the results depend on the processing

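The number of endothelial cells was 161 to 169 under every alternative tried (minimums of 3 and 10 rule-gene UMIs, thinning, barcode ending 1 only). Genes called higher than in all other cells numbered 2252, and 1288 when totals excluded acinar markers, 934 against other cells under 10% enzymes, 4496 at a floor of 20 UMIs and 1018 at 100. Genes called lower numbered 344, and 717 and 202 at those floors. Fewer or more genes were tested at each floor. Against acinar cells, 1009 genes in place of 1546 were higher, and 268 in place of 136 lower, without acinar markers in the totals. Between arterial-marker and capillary-marker cells, 114 genes were called higher and 129 lower, and 173 and 214 against all other endothelial cells, 399 and 362 at a floor of 10, and 18 and 27 at a floor of 50. The median of the immediate early list turned from 1.06 to -0.0154, and that of the acinar markers to 0.26, against other cells under 10% enzymes, whose totals hold few enzymes by construction. The lymphatic list, with 2 genes over the floor, turned to -1.95 without the 5 members that carried markers of another class, among them the cell that held all Ccl21a. Of the named genes' values, 138 of 146 and, within the endothelial cells, 141 of 143 moved by no more than counting error. Of the list medians' values under these alternatives, 112 did so too, 45 moved further and 3 changed sign. Of the counts of genes between arterial-marker and capillary-marker cells, 6 moved by over 1.5 times and 12 did not. Without cells rich in cycle genes, an alternative added after seeing the data, 1 of 20 genes named between Car4 and Aplnr cells moved beyond counting error, Hmgb2, from -1.31 to -0.29. No paired analysis was possible because no label ties a cell or a barcode ending to a replicate, and no replicate could be left out for the same reason. With barcode ending 1 alone, 2131 genes were called higher and 332 lower. Depth limits genes with few UMIs: in the 28 arterial-marker cells 3 counts are 42.5 CPM.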
